A study of Mus musculus with 8 samples.

Results

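Collagen chains were examined in sorted mouse pancreatic cancer cells that had been cultured with pancreatic stellate cells, with or without an antibody that neutralizes sonic hedgehog (SHH). Members were the protein-coding genes whose symbol begins with Col, a number, a and a further number. This took 45 of the 39179 genes listed, of which 22740 were protein coding. One of the 45, Col4a3bp, encodes a ceramide transfer protein and not a collagen, so it was kept apart and 44 chains remained. Of these, 34 were counted in 1 library or more and 10 in none.

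The antibody arm held 4 libraries from cocultures kept for 72 h in 0.5% dialyzed serum with 20 µg/mL of the neutralizing antibody. The no-antibody arm held 4 libraries from cocultures kept in the same way without it, and the labels name no control antibody. In both arms the cancer cells came from mice of strain FVB/B6 mix whose genotype includes p48Cre, ROSA_rtTAL+ and p53L+, where p48Cre drives recombination in pancreatic cells and rtTA is a transactivator controlled by doxycycline. The cancer cells carried GFP and the stellate cells RFP, and only GFP cells sorted by flow cytometry were sequenced. The labels call the 4 samples of an arm biological, without naming separate mice or cell lines. If the 4 share a line, the p-values measure only the spread between cultures.

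Collagens are extracellular proteins whose chains wind around each other into a helix before they are secreted. Type IV chains build the network of basement membranes, on which epithelial cells rest, and type XVIII is a basement membrane proteoglycan. Type I and type III chains build the fibrils of connective tissue, and in the pancreas these are made chiefly by stellate cells once activated.

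The libraries held between 14953255 and 15733280 counts with antibody and between 10009711 and 14602784 without. The labelled cell type was checked against its markers. Of 7 epithelial markers all 7 were tested and 1, the adhesion molecule Epcam, was called higher, beside 4.53% of all genes tested. Levels are in CPM (counts per library total, with TMM factors). Krt8, a keratin of simple epithelia, averaged 1515 ± 38.6 CPM with antibody and 1417 ± 136 CPM without (SD, n = 4 each). Krt18, Krt19, Krt7 and Cdh1 averaged 828 CPM or more in each arm. Epcam was lower, at 24.99 CPM with antibody and 20.57 CPM without. Cldn4 was the lowest of the list, at 2.78 CPM with antibody and 3.13 CPM without. The 16 stellate-cell markers outside the collagens summed to 27.7 to 30.8 CPM with antibody and 28.4 to 33.3 CPM without. Most of this was Fbln1, which averaged 22.4 CPM in each arm. Of the 16, Dcn and Lum were the 2 with no count in any of the 8 libraries. The 5 endothelial, 5 leukocyte and 5 acinar markers summed to 12.9 to 14.3, 4.87 to 6.50 and 2.69 to 3.49 CPM with antibody, against 11.3 to 12.9, 4.72 to 6.28 and 2.65 to 4.61 CPM without. Most of each sum was 1 marker. Cdh5 averaged 12.56 CPM with antibody and 11.46 without, Cd68 5.05 and 4.60, and Cela1 2.99 and 3.88. The other 4 acinar markers had no count. Kdr averaged 0.944 and 0.589 CPM, and each other endothelial or leukocyte marker at most 0.364 CPM in an arm.

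The chains fell into a few abundant ones and a long tail. Levels between genes were compared only per length, as the authors' RPKM averaged over the 8 libraries. At 5 RPKM or more stood 7 chains: Col18a1, the type XVIII chain, at 94.4; Col4a1 and Col4a2, the paired chains of most basement membranes, at 58.1 and 32.9; Col5a1, a fibrillar chain that regulates fibril assembly, at 13.2; Col6a1, of beaded microfilaments, at 8.26; Col4a5, of specialised basement membranes, at 6.61; and Col7a1, of the anchoring fibrils beneath epithelia, at 5.48. Between 0.5 and 5 RPKM stood 5 chains, Col8a1 at 2.63, Col1a1 at 2.03, Col27a1 at 2.02, Col1a2 at 1.06 and Col6a2 at 0.567. Another 22 chains lay under 0.5 RPKM, with Col4a3 at 0.433 just under that limit and Col3a1 at 0.41. The type I chains Col1a1 and Col1a2 thus stood above the trace class to which Col3a1 belonged. Replacing the authors' gene lengths by GENCODE transcript lengths moved Col3a1, Col4a3 and Col16a1 to the middle class at 0.617, 0.504 and 0.51, and left the high class as it was.

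**Figure D1:**
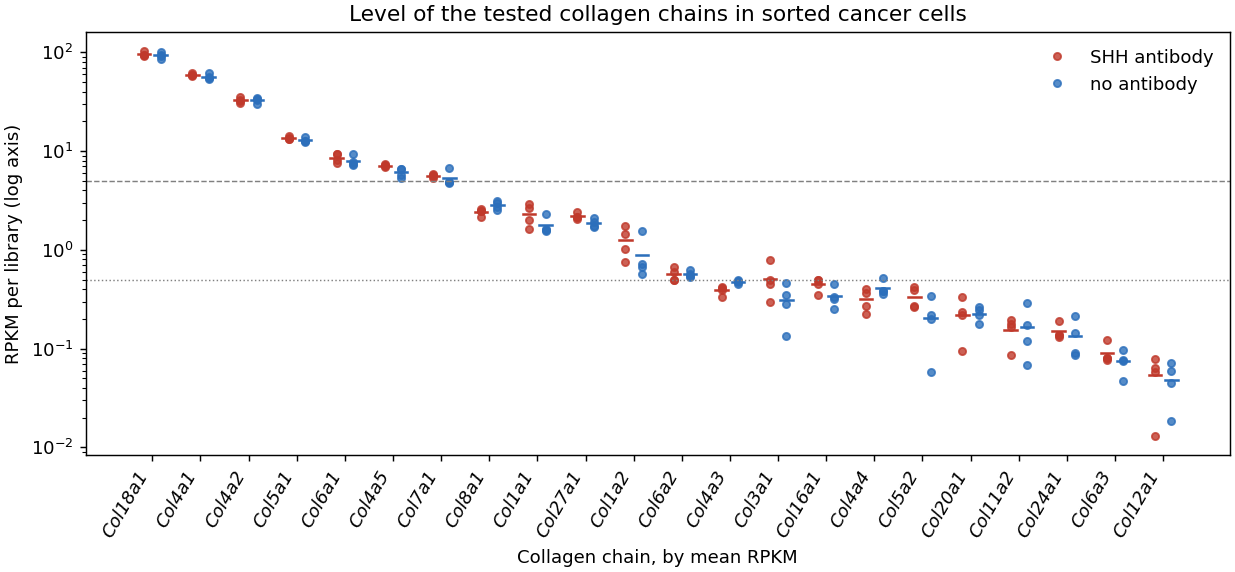
Level of each of the 22 tested collagen chains, as the authors' RPKM on a log axis, with 1 point per library, short lines at the arm means, the antibody arm left of the no-antibody arm, and dashed and dotted lines at 5 and 0.5 RPKM. Col18a1, Col4a1 and Col4a2 stand highest, and Col1a1, Col1a2 and Col3a1 lie well below them in both arms.

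Col18a1, Col4a1 and Col4a2 together made up 79.2% to 80.8% of summed collagen RPKM with antibody and 79.8% to 82.1% without. Col1a1, Col1a2 and Col3a1 together made up 1.2% to 2.33% with antibody and 1.03% to 1.77% without. Collagen chains took 0.158% to 0.175% of all counts with antibody and 0.148% to 0.173% without. The ranges of the arms overlapped in each of these shares.

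Some type IV chains lie head to head. Col4a1 on the minus strand and Col4a2 on the plus strand overlap by 22 bases on chromosome 8, and Col4a5 and Col4a6 start 1343 bases apart on chromosome X in RefSeq. Col4a3 and Col4a4 are a further pair, with 71 bases between them on chromosome 1, and both lay under 0.5 RPKM. The windows from 250 bases before to 50 after the starts of Col4a1, Col4a2, Col4a5 and Col4a6 are shown. These windows were chosen because one pair is abundant on both sides and the other is uneven. They are RefSeq sequences of GRCm38.p6, at chr8:11312777-11313076 (minus strand), chr8:11312555-11312854 (plus strand), chrX:141475169-141475468 (plus strand) and chrX:141474027-141474326 (minus strand). Capitals mark the GC box GGGCGG and the CCAAT box, each searched on both strands.
Col4a1: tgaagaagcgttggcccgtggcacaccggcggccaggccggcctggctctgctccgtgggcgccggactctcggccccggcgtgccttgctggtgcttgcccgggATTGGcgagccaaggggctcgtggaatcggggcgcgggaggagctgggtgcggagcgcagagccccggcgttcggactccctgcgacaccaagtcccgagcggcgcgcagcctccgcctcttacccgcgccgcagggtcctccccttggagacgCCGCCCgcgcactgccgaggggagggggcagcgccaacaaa
Col4a2: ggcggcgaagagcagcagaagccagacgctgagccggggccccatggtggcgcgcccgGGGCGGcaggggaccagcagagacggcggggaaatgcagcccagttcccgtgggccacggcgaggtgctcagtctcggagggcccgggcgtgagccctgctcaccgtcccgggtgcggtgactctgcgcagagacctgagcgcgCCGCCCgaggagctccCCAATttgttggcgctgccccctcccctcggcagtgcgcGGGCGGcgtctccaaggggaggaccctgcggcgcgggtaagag
Col4a5: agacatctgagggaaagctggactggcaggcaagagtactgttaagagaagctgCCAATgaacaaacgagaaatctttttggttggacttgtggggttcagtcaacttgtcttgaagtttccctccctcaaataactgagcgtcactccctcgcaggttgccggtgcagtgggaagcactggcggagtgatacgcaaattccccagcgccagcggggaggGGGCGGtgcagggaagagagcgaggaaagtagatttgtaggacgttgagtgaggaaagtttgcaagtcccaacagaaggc
Col4a6: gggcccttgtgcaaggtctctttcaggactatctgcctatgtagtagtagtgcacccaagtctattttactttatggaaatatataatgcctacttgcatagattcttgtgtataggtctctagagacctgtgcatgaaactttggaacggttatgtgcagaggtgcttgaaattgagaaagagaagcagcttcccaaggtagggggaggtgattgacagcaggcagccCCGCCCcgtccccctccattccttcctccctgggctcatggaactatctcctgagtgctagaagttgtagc
The Col4a1 and Col4a2 windows share 78 bases and are 74.0% and 73.7% G or C. Those of Col4a5 and Col4a6 are 52.7% and 48.3% G or C, against a median of 52.7% over all windows. The window of the trace chain Col4a4, not printed here, is 63.3% G or C. Among 38 windows of the 35 chains that RefSeq's table holds, 60.5% had a GC box and 34.2% a CCAAT box, against 35.7% and 37.4% of all 32851 windows. The 2 boxes shared 0 bases in any of the 4 windows. The letters TGGGTGGTC, a motif of the hedgehog factors GLI, were in 0 of the 38 windows and in 0.253% of all windows. A match is a description of letters and not a binding site.

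Of the 22 chains that passed the filter on low counts, 1 was called higher with antibody and 0 lower (edgeR, p adjusted over all 13626 genes tested, threshold 0.05). Of all genes tested, 4.53% were called higher and 3.87% lower. At unadjusted p under 0.05 the same test gave 5 chains higher and 2 lower. DESeq2 called 0 chains higher and 0 lower, and limma voom 1 higher and 0 lower. The 7 chains at unadjusted p under 0.05 are 31.8% of those tested, beside 21.5% of all genes. The median log2 fold change, antibody over no antibody, was 0.08 over the 22 chains and -0.004 over all genes, and the chains ranged from -0.40 to 0.66. The arms did not overlap for 1 chain that was higher with antibody, Col4a5, and 1 that was lower, Col4a3, beside 7.71% and 6.56% of all genes.

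**Figure D2:**
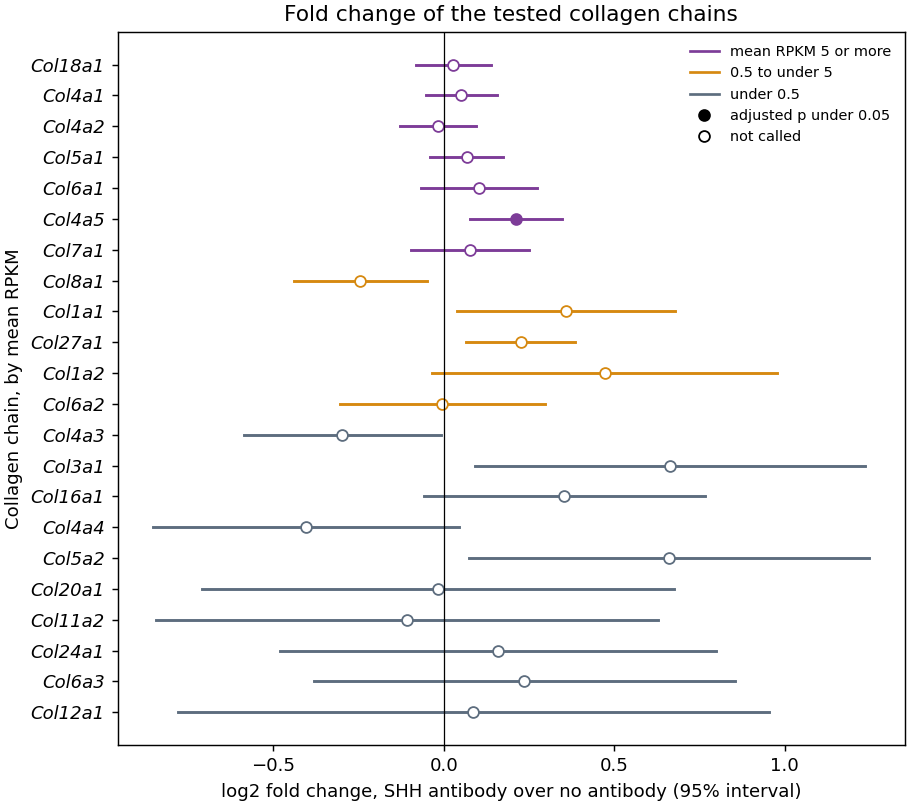
Log2 fold change of each of the 22 tested chains, antibody over no antibody, with unadjusted 95% intervals from the edgeR fit, coloured by level class and filled where adjusted p was under 0.05. Only Col4a5 is filled among these 22, Col18a1, Col4a1 and Col4a2 lie near 0, and Col3a1 and Col5a2 have the highest values, 0.66 each.

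Col4a5 (ENSMUSG00000031274, chrX:141475385-141689234, plus strand, GRCm38) was the called chain. It measured 48.9, 46.7, 47.3 and 48.3 CPM with antibody, against 45.4, 36.1, 39.0 and 43.8 CPM without. Every antibody library stood above every library without antibody, which were the more widely spread. The fold was 1.16 (95% interval 1.05 to 1.27, log2 fold change 0.21 ± 0.065 SE, edgeR adjusted p = 0.0467). The call was lost in 6 of the 8 fits that leave out 1 library, namely without each of the 4 antibody libraries and without no-antibody replicates 2 and 3, where adjusted p reached 0.147. With all 8 libraries it was lost under upper quartile scaling (adjusted p = 0.0593 by edgeR) and with the stellate marker covariate (0.0998). That covariate is the log2 of the summed CPM of all 16 stellate markers outside the collagens. Most of the sum is Fbln1, and it includes Pdgfra, which was itself called lower. The Col4a5 call was also lost in DESeq2 (0.0533) and in limma on log2(RPKM + 1) (0.115) and log2(RPKM + 0.1) (0.114). Over all alternatives the Col4a5 call was kept in 8 of 19. Its neighbour Col4a6 passed no filter, with 4, 7, 5 and 10 counts with antibody and 6, 6, 4 and 4 without. Col4a5 overlaps Gm15268 on the same strand, which had at most 3 counts in a library.

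The 3 most abundant chains, Col18a1, Col4a1 and Col4a2, showed no called difference, and their intervals bound the change. Col18a1 measured 711.6, 659.6, 645.8 and 662.3 CPM with antibody, against 713.3, 668.1, 643.4 and 602.9 CPM without (fold interval 0.945 to 1.10, edgeR adjusted p = 0.822). The arms overlapped throughout. Slc19a1 on the opposite strand overlaps Col18a1, with 331 to 461 counts.

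Col4a1 measured 421.9, 394.8, 398.0 and 400.3 CPM with antibody, against 424.2, 377.0, 388.2 and 368.5 CPM without (fold interval 0.965 to 1.11, edgeR adjusted p = 0.602). Col4a2 measured 229.8, 213.3, 202.6 and 220.4 CPM with antibody, against 234.2, 219.7, 224.4 and 197.9 CPM without (fold interval 0.915 to 1.07, edgeR adjusted p = 0.908). Both pairs of arms overlapped. Per length, Col4a1 exceeded Col4a2 by 1.81 ± 0.065 times with antibody and 1.73 ± 0.068 times without (SD, n = 4 each).

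The other abundant chains lie outside the type IV network. Col5a1 measured 119.9, 114.5, 112.3 and 113.1 CPM with antibody, against 120.9, 106.8, 107.2 and 104.0 CPM without (fold interval 0.972 to 1.13, edgeR adjusted p = 0.501). Col6a1 measured 40.6, 36.0, 32.8 and 40.7 CPM with antibody, against 41.2, 34.2, 31.7 and 32.5 CPM without (fold interval 0.955 to 1.21, edgeR adjusted p = 0.505). Col7a1 measured 59.1, 57.5, 55.0 and 58.7 CPM with antibody, against 69.4, 50.3, 48.2 and 49.7 CPM without (fold interval 0.935 to 1.19, edgeR adjusted p = 0.654). In each of these 3 chains the highest library of all was no-antibody replicate 1.

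The stellate-type chains were low and uneven between libraries. Col1a1 (chr11:94936224-94953042, plus strand, GRCm38) measured 17.2, 13.1, 10.7 and 19.3 CPM with antibody, against 15.4, 10.1, 10.4 and 10.7 CPM without (log2 fold change 0.36 ± 0.153 SE, edgeR adjusted p = 0.169). Col1a2, its partner in type I collagen, measured 17.4, 12.5, 9.21 and 21.3 CPM with antibody, against 19.2, 8.71, 6.93 and 8.08 CPM without (log2 fold change 0.47 ± 0.243 SE, edgeR adjusted p = 0.271). Col3a1, the type III chain, measured 4.12, 3.81, 2.50 and 6.64 CPM with antibody, against 3.97, 2.40, 1.12 and 2.94 CPM without (log2 fold change 0.66 ± 0.276 SE, edgeR adjusted p = 0.156). For all 3 the arms overlapped, antibody replicate 4 was the highest and replicate 3 the lowest of their arm, and no-antibody replicate 1 stood above the other 3 of its arm. Col5a2, a type V chain that was picked out after its values were seen, had the same order in the antibody arm and a log2 fold change of 0.66 ± 0.283 SE (edgeR adjusted p = 0.17). The order was not particular to these chains. The abundant Col6a1, and Col6a3, Col12a1 and Col16a1, had the same antibody order. No-antibody replicate 1 was the highest of its arm in all 7 chains at 5 RPKM or more.

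**Figure D3:**
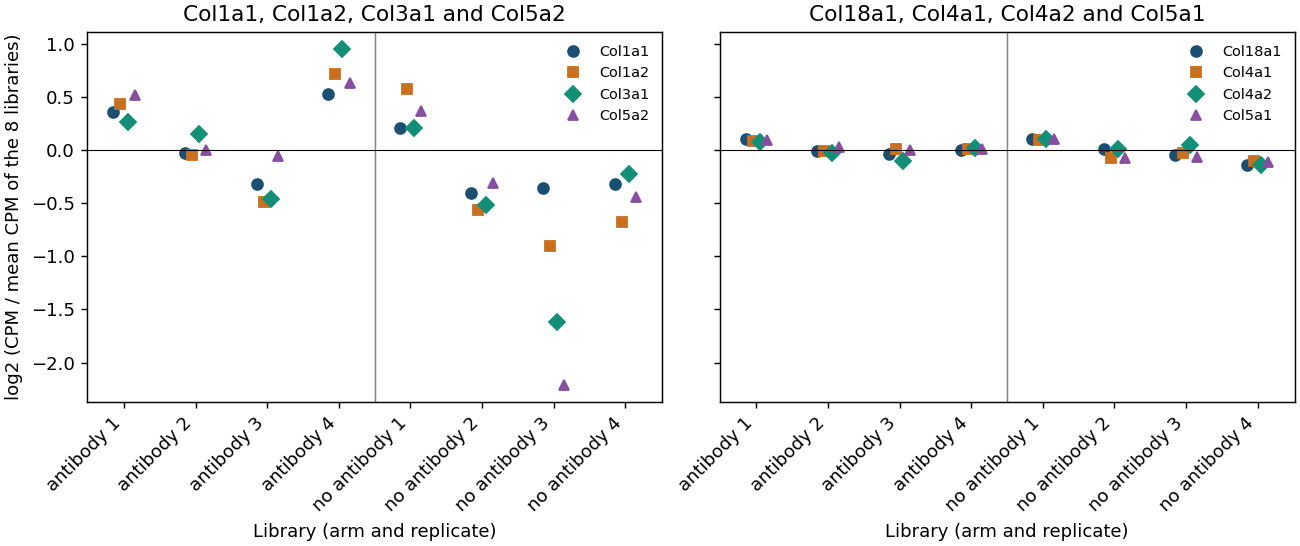
Level of 8 chains in each library, as the log2 of CPM over the chain's mean CPM in the 8 libraries, with the antibody libraries left of the no-antibody libraries. Col18a1, Col4a1, Col4a2 and Col5a1 vary little within an arm, while Col1a1, Col1a2, Col3a1 and Col5a2 are each highest in antibody replicate 4 and, within the other arm, in no-antibody replicate 1. No-antibody replicate 1 is also the highest of its arm for Col18a1, Col4a1, Col4a2 and Col5a1.

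Within an arm, the coefficient of variation of Col1a1, Col1a2, Col3a1 and Col5a2 was 24.1% to 40.6% with antibody and 21.7% to 57.6% without, where counting alone would give 6.58% to 14.2% and 8.41% to 20.2%. That of Col18a1, Col4a1, Col4a2 and Col5a1 was 2.99% to 5.3% with antibody and 6.3% to 7.03% without, where counting would give 0.986% to 2.38% and 1.13% to 2.75%. Both groups of chains thus varied by more than counting. The sum of Col1a1, Col1a2 and Col3a1 was 38.7, 29.4, 22.4 and 47.2 CPM with antibody, against 38.7, 21.2, 18.5 and 21.7 CPM without. In a sorted bulk sample, fewer cells of a type and less RNA per cell cannot be told apart.

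Other stellate markers were read beside these chains. Pdgfrb, a growth factor receptor of mesenchymal cells, had 25, 27, 5 and 43 counts with antibody, against 26, 6, 13 and 6 without. It was highest in antibody replicate 4 and in no-antibody replicate 1, as the type I chains and the abundant Col6a1 were, and was not called (edgeR adjusted p = 0.473). By CPM, Mmp2 was highest in the same libraries. Pdgfra was highest in no-antibody replicate 1 but lowest in antibody replicate 4, and Fbln1 was the lowest of its arm in both. Of the 16 markers on the list 4 were tested, and 1 of them fell, beside 3.87% of all genes. It was the receptor Pdgfra, at 2.78 ± 0.49 CPM with antibody and 4.97 ± 0.89 CPM without (SD, n = 4 each; edgeR adjusted p = 0.00271). Without Fbln1, which made up most of the list's level, the markers summed to 8.17, 7.68, 5.40 and 8.19 CPM with antibody, against 10.5, 6.41, 9.46 and 7.60 CPM without. The part of residual stellate RNA in the collagen values was not tested.

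With all 8 libraries and no filter on low counts, Col1a1, Col1a2, Col3a1 and Col5a2 were called higher (edgeR adjusted p = 0.00616, 0.000101, 0.00497 and 0.0224). With the filter, their calls changed when libraries were left out. Without no-antibody replicate 1, the log2 fold change was 0.53 for Col1a1 (edgeR adjusted p = 0.0153), 0.93 for Col1a2 (0.00119), 0.93 for Col3a1 (0.0283) and 1.04 for Col5a2 (0.0139). In that fit 7 of the 22 chains were called higher, the others being Col4a5, Col27a1 and Col7a1, beside 5.50% of all genes. With no-antibody replicates 1 and 4 both left out, the same 7 chains were called, beside 8.06% of all genes. No other pair was left out, and this fit repeats the removal of replicate 1, so it is not a separate check. That fit rests on no-antibody replicates 2 and 3 alone, the shallowest libraries at 10009711 and 10670776 counts. In each of the 7 chains no-antibody replicate 1 was the highest of its arm, so leaving it out raises the fold by construction. Col1a1 was also called without antibody replicate 3 (log2 fold change 0.49, edgeR adjusted p = 0.0458).

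**Figure D4:**
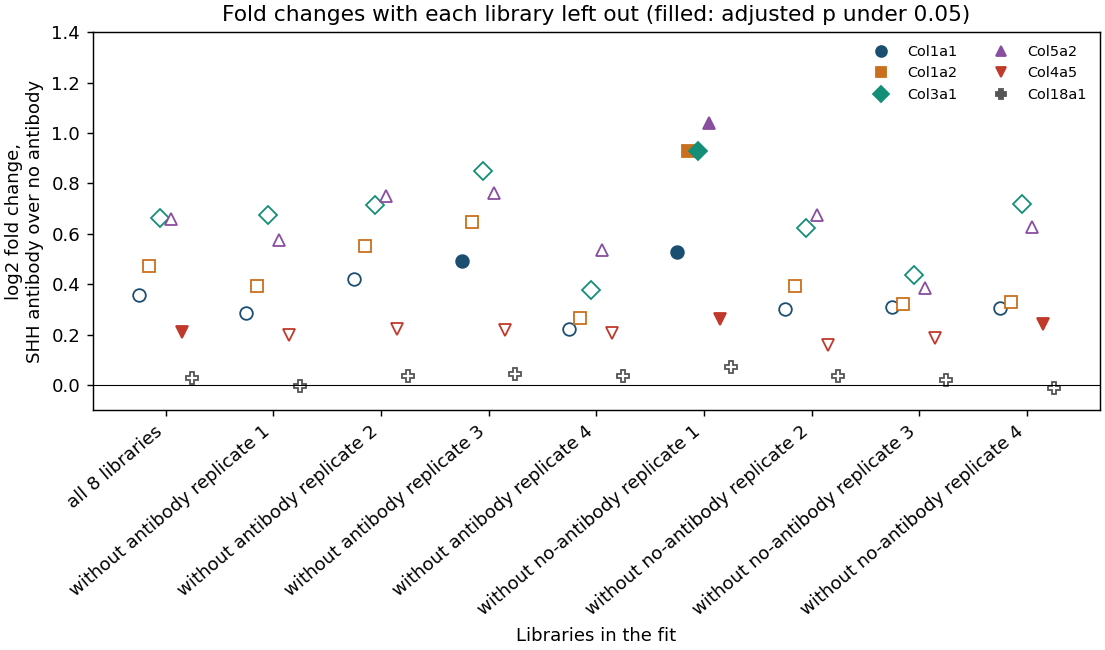
Log2 fold change of Col1a1, Col1a2, Col3a1, Col5a2, Col4a5 and Col18a1, antibody over no antibody, with all 8 libraries and with each library left out, filled where edgeR's adjusted p was under 0.05. The values of Col1a2 and Col3a1 reach 0.93 without no-antibody replicate 1, and those of Col4a5 stay between 0.16 and 0.26.

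The remaining tested chains gave no call. Col8a1, a network chain of vessel walls, had a log2 fold change of -0.24 (edgeR adjusted p = 0.117), and Col27a1, a fibrillar chain of cartilage, one of 0.23 (edgeR adjusted p = 0.0752). Col4a3 and Col4a4, partners of Col4a5 in the kidney, had values of -0.30 and -0.40 (edgeR adjusted p = 0.221 and 0.294). Untested were 12 chains with counts, none above 13 counts in a library, among them Col17a1, a hemidesmosome component, with 0, 3, 2 and 0 counts with antibody and 0 in each library without. The 10 chains with no count (Col6a4, Col6a5, Col6a6, Col9a1, Col9a2, Col10a1, Col13a1, Col22a1, Col25a1 and Col26a1) lie under 3 counts, or 0.191 to 0.30 CPM by library.

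Chains that assemble together differed in how even they were per length. Col6a1 exceeded Col6a2, its partner in type VI collagen, 15.2 ± 1.15 times with antibody and 14 ± 0.526 times without on the authors' RPKM scale (SD, n = 4 each), and 9.08 and 8.34 times with GENCODE transcript lengths. Col5a1 exceeded Col5a2 by 42.1 ± 9.54 times with antibody and 93.7 ± 81.6 times without (SD, n = 4 each). The no-antibody mean rests on replicate 3, at 215 times, while the other 3 libraries gave 40.8, 57.3 and 61.3. With transcript lengths the means of Col5a1 over Col5a2 were 29.4 with antibody and 65.4 without. On the authors' lengths, Col4a3 over Col4a4 was 1.31 ± 0.429 with antibody and 1.18 ± 0.218 without, with libraries on both sides of 1 in each arm. With transcript lengths the means of Col4a3 over Col4a4 were 2.39 and 2.15, so how even this pair was depended on the length used. Col4a5 exceeded Col4a6 by 152 ± 60.4 times with antibody and 125 ± 49 times without (SD, n = 4 each), and by 130 and 107 times with transcript lengths. The ratio of Col1a1 to Col1a2 depended on the length used, at 1.90 ± 0.202 with antibody and 2.21 ± 0.55 without on the authors' lengths, and at 0.925 and 1.08 with transcript lengths. Col4a3bp, the gene kept apart, averaged 108.2 ± 3.95 CPM with antibody and 99.4 ± 8.83 CPM without (SD, n = 4 each; edgeR adjusted p = 0.221).

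Genes that make, modify or bind collagen were read from 3 lists. Of 37 genes of collagen biosynthesis and processing 32 were tested, and 0 were called higher and 2 lower by edgeR, beside 4.53% and 3.87% of all genes. At unadjusted p under 0.05 there were 3 higher and 6 lower. P4ha1, a prolyl hydroxylase subunit, fell to 59.1 ± 1.05 CPM with antibody, against 69.7 ± 4.60 CPM without (SD, n = 4 each; log2 fold change -0.24 ± 0.054 SE, edgeR adjusted p = 0.00681). Loxl4, a crosslinking oxidase, fell to 37.9 ± 2.95 CPM with antibody, against 44.8 ± 3.33 CPM without (edgeR adjusted p = 0.0315). The Loxl4 call was lost in 5 of 8 fits that leave out 1 library, without antibody replicates 2, 3 and 4 and no-antibody replicates 2 and 3, and also with the stellate marker covariate and on both RPKM scales. P4hb, the partner subunit of P4ha1, averaged 717.0 CPM with antibody and 698.0 CPM without, and the collagen chaperone Serpinh1 127.3 and 130.5 CPM, with no call.

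Of 11 receptors and uptake genes 8 were tested, with 1 called higher and 1 lower, beside the same 4.53% and 3.87% of all genes. Itga1, an integrin subunit that binds type IV collagen, rose to 67.2 ± 0.99 CPM with antibody, against 57.6 ± 2.10 CPM without (SD, n = 4 each; edgeR adjusted p = 0.00697). Itga2, a subunit that prefers fibrillar collagen, fell to 118.1 ± 5.38 CPM with antibody, against 137.6 ± 10.6 CPM without (edgeR adjusted p = 0.0127), and lost its call without antibody replicate 3 and on both RPKM scales. Their shared partner Itgb1 averaged 630.1 CPM with antibody and 626.9 CPM without. Itga1 overlaps Pelo on the same strand, so reads there may be shared.

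Of 21 basement membrane and hemidesmosome genes 17 were tested, with 1 called higher and 1 lower, again beside 4.53% and 3.87% of all genes. Itgb4, the hemidesmosome integrin subunit, rose to 63.8 ± 3.05 CPM with antibody, against 46.5 ± 2.34 CPM without (SD, n = 4 each; log2 fold change 0.46 ± 0.056 SE, edgeR adjusted p = 1.32e-05). Its partner Itga6 averaged 442.5 CPM with antibody and 456.7 CPM without. Cd151, a tetraspanin that binds laminin-binding integrins, fell to 92.8 ± 1.46 CPM with antibody, against 104.3 ± 5.05 CPM without (edgeR adjusted p = 0.0342), a call lost in 6 of 8 fits that leave out 1 library, without each antibody library and without no-antibody replicates 2 and 3, and also with no filter, with the stellate marker covariate and on both RPKM scales.

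**Figure D5:**
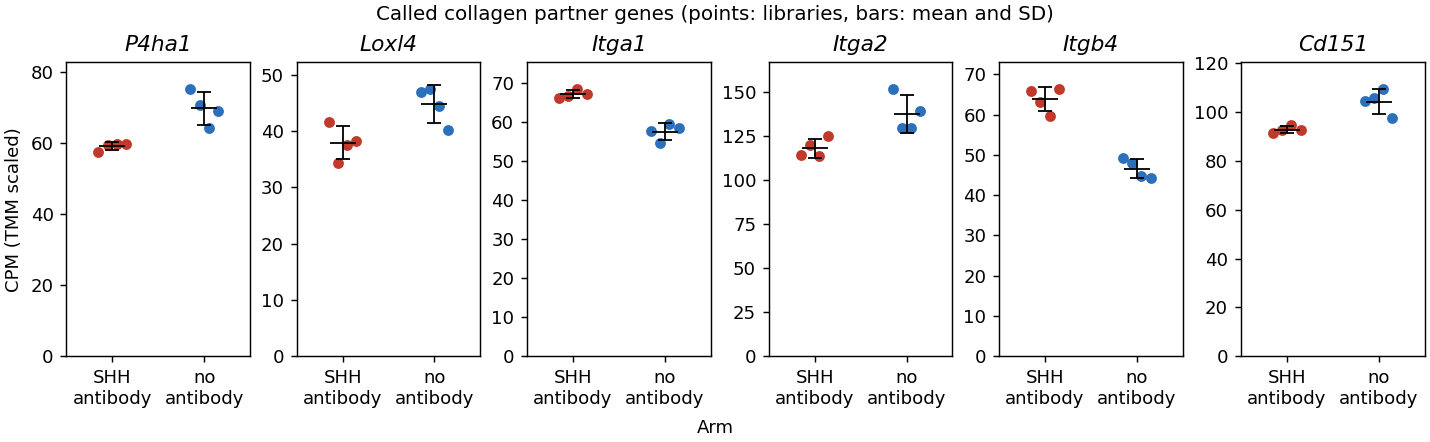
Level of the 6 called partner genes, 1 point per library, in TMM-scaled CPM, with antibody left of no antibody and bars at the mean ± SD. Itgb4 and Itga1 stand higher with antibody, and P4ha1, Loxl4, Itga2 and Cd151 lower.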

How the data were processed

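PolyA RNA of sorted cells was sequenced with a directional kit, per the labels' protocols. Per the submitters' processing notes, CASAVA 1.8.2 and TopHat2 2.0.9 were used with GRCm38. For the counting tool, annotation release and strand setting, the record is "not given in the sources used here". Raw counts and RPKM values per gene were deposited by the authors. The gene length implied by count, RPKM and column total agreed across libraries within 0.01 bases for all 19399 genes checked. The lengths themselves were not checked this way. For Col1a2 the implied length was 12136 bases, against 5348 for its longest GENCODE protein-coding transcript. The test was edgeR's quasi-likelihood F test (version 4.0.16, R 4.3.3) with TMM factors, filterByExpr and Benjamini-Hochberg adjustment at 0.05. DESeq2 1.42.0, limma 3.58.1 and leaving out libraries were alternatives. CPM are TMM-scaled counts, as mean ± SD. The floor of 3 counts covers counting error only. Per-library values were given for chains at 5 RPKM or more, called chains, Col1a1, Col1a2 and Col3a1, and called genes were named from each partner list. Members, lists and alternatives were chosen with earlier results of these data known. The fit was tested on simulated data. The simulation set no library apart, so it does not bear on calls that change when 1 library is left out. One further allele of the genotype is not reported here.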

Additional observations from a re-analysis of the deposited data

Results flagged for a closer look

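Single libraries stood apart from the other 3 of their arm in 7 of 56 sets of 4 values tested (Dixon's gap over range above its 95% critical value, which chance passes in about 5% of sets). In no-antibody replicate 1 these were Col1a1 at 15.4 CPM, Col1a2 at 19.2 CPM, Col4a4 at 3.43 CPM and Col7a1 at 69.4 CPM, each the highest of its arm. Col6a3 stood highest in antibody replicate 4 at 1.48 CPM, and Col24a1 in antibody replicate 2 at 1.46 CPM. P4ha1 stood lowest in antibody replicate 1 at 57.6 CPM.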

How the results depend on the processing

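The count of chains called higher, 1 of 22, became 0 with upper quartile scaling, the stellate marker covariate, DESeq2, log2(RPKM + 1) and log2(RPKM + 0.1), 6 with no filter on low counts, and 0 to 7 over the fits that leave out 1 library. It was 7 with no-antibody replicates 1 and 4 both out. Chains called lower were 0 in every fit run. Partner genes called, 6, became 3 with either RPKM scale, 11 with both libraries out, and 3 to 9 leaving out 1 library. All genes called, 1144, became 675 and 670 on the RPKM scales, 679 and 695 without antibody replicates 2 and 3, and 2263 with both libraries out. Col4a2, at -0.016, turned to 0.020 with the covariate, 0.015 without antibody replicate 3 and 0.018 without no-antibody replicate 1 (-0.065 to 0.018 leaving out 1 library). Col18a1, at 0.028, turned to -0.006 without antibody replicate 1 and -0.013 without no-antibody replicate 4 (-0.013 to 0.070). Causes were not tested. Over all genes tested, the deviations of same-numbered libraries from their arm means correlated at -0.029 to 0.007. Whether the collagen chains alone vary with the replicate number was not tested. With the replicate block 3 chains were called higher, Col3a1 (adjusted p = 0.0307 by edgeR), Col4a5 (0.0348) and Col1a2 (0.0481). The 6 without a filter were Col1a1, Col1a2, Col3a1, Col5a2, Col4a5 and Col27a1, in a fit whose prior degrees of freedom were infinite, so that a gene's own spread had no weight.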
